A study of Homo sapiens with 6 samples.

Results

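The transcripts of 5 chemokines and 5 chemokine receptors were read in MM1.S, an established human multiple myeloma cell line, after knockdown of beta-catenin. The 10 genes were CCL3, CCL4, CCL5, CXCL8 and CXCL10 among the ligands and CXCR3, CXCR4, CCR2, CCR7 and CCR10 among the receptors. Every probe set that the platform annotation pairs with 1 of these symbols was taken, which gave 17 of the 54675 probe sets of the array. The genes were selected on their knockdown-minus-control values in these same arrays, so the differences given for them are a description and carry no test. The comparison was 3 arrays of cells infected with a lentivirus that carried a control shRNA (labelled pKLO GFP control) against 3 arrays of cells infected with a beta-catenin shRNA. All cells in both groups were thus lentivirally infected and sorted for GFP, and each group was grown as 3 cultures. The labels name no separate infections or clones, and the spread between arrays is the spread between these cultures. Some label text speaks of embryos and does not match the cell line named elsewhere in the labels.

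Chemokines are small secreted proteins that steer the movement of leukocytes, and their receptors are G protein-coupled receptors that act through inhibitory G proteins. CC and CXC chemokines are told apart by the spacing of their first cysteines. CCL3 and CCL4 (MIP-1 alpha and MIP-1 beta) are made by many myelomas and promote the formation of osteoclasts, the cells behind myeloma bone lesions. CXCR4 holds plasma cells and myeloma cells in the bone marrow, where stromal cells secrete its ligand CXCL12.

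Values are the deposited log2 expression values, whose lowest value was 4. Array medians ran from 5.44 to 5.54. CTNNB1, the gene of beta-catenin, read between 7.67 and 7.82 in control arrays and between 6.34 and 6.53 in knockdown arrays on its brightest probe set, and its 2 dimmer probe sets did not fall (differences of -0.07 and 0.33). All 10 plasma cell markers were above the filter on low values, a mean of 5.49 that is the median over probe sets. Their summed signal ran from 11036 to 11427 in control and from 11722 to 12142 in knockdown arrays. By limma 4 of them were called higher: PRDM1 (0.51), CD38 (0.39), SLAMF7 (0.80) and MZB1 (0.82). SDC1 (-0.20), TNFRSF17 (-0.32) and IRF4 (-0.23) were called lower, and 3 were not called. Over all genes tested 25.3% were called higher and 22.0% lower. Of 11 T and NK cell markers 3 were above that filter, with sums of 461 to 521 and 450 to 483. Of 9 myeloid markers 5 were above it, with sums of 313 to 337 and 315 to 345. The T and NK cell markers above it were CD3D, PRF1 and CD4, and the myeloid ones LYZ, CSF1R, MPO, S100A9 and CD163. CD4 had means of 7.83 in control and 7.63 in knockdown arrays. Among these T, NK and myeloid markers CSF1R alone was called, with a rise of 0.31 (limma, adjusted p = 0.0332). CD14, CD3E and CD3G were among those below the filter. In cells in bulk a change in the number of cells of a type and a change in RNA per cell cannot be told apart. The array's 3 probe sets for 18S ribosomal RNA averaged 8.58 to 10.1 on control arrays and 10.3 to 11.0 on knockdown arrays, so they moved with the groups. Their part in the results was not tested.

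CCL3, CCL4 and CCL5 were higher in every knockdown culture than in any control culture, and CXCR4 was lower in every one. The other 6 genes lay close to the controls, with differences of at most 0.40 on the log2 scale. Groups that do not overlap are common on these arrays: they were found for 7044 of the 12939 genes above the filter. Non-overlap thus does not set a gene apart from the rest. In a limma fit over all 54613 probe sets that are not array controls, 5 of the 17 probe sets passed the threshold of an adjusted p of 0.05 as higher and 3 as lower. Over all probe sets 13.3% passed as higher and 9.95% as lower, a split that turned to 6217 higher and 6964 lower when arrays were centred on their medians (7259 and 5434 as deposited). Since the genes were picked from this contrast, nothing is read from their count. Of the 17 probe sets, 11, of 6 genes, had a mean at or above the filter. CXCL8, CXCL10, CCR2 and CCR7 had none there.

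**Figure D1:**
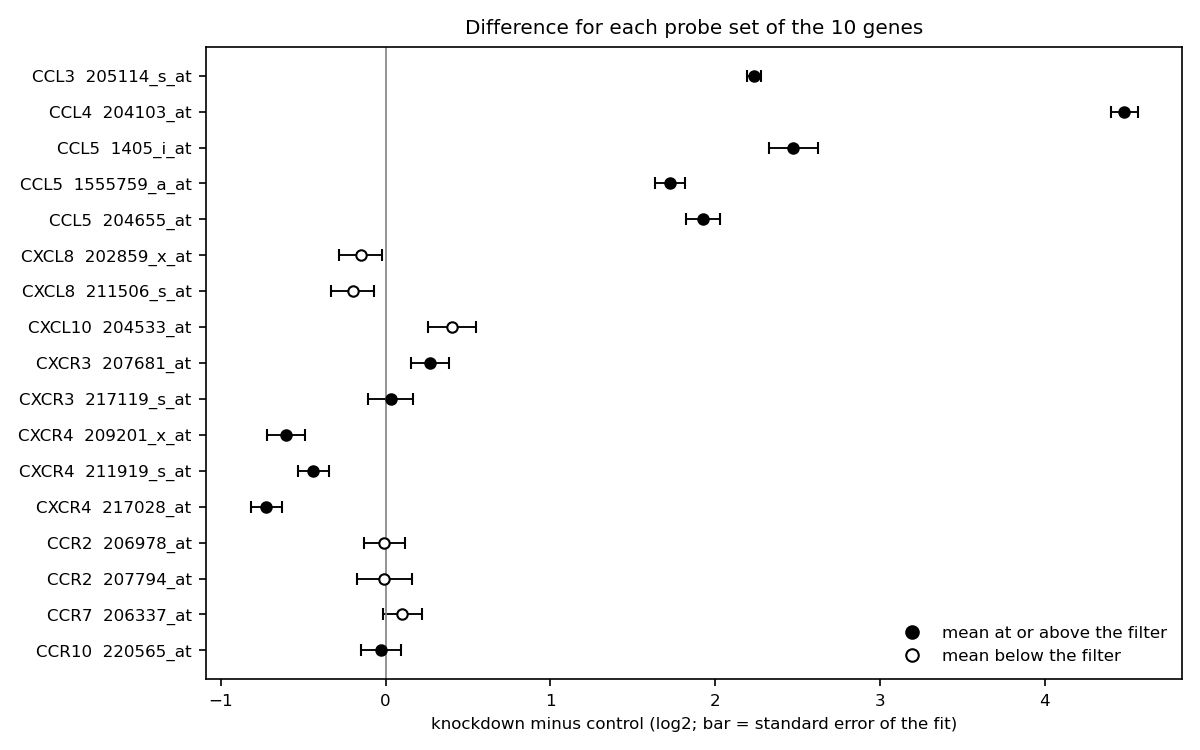
Knockdown minus control on the log2 scale for each of the 17 probe sets, with the standard error of the limma fit as a bar, filled where the mean over the 6 arrays reached the filter and open where it did not. The probe sets of CCL3, CCL4 and CCL5 lie between 1.72 and 4.48, those of CXCR4 between -0.72 and -0.44, and the rest between -0.20 and 0.40.

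Among the ligands CCL4, an attractant of monocytes and T cells, had the largest difference. Its probe set, 204103_at, read 5.95, 5.90 and 5.82 in the controls and 10.31, 10.45 and 10.36 in the knockdown. The controls thus lay just above the filter and the knockdown cultures far above it, with no overlap. The means were 5.89 ± 0.06 and 10.37 ± 0.07 (SD, n = 3 each), a difference of 4.48 (SE 0.08) or 22.3-fold. The size of the fold depends on the constant that the floor of the values shows, an offset of 16 on the linear scale: the difference was 3.68 with an offset of 64 and 4.89 with an offset of 1.

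CCL3, a ligand of CCR1, was read by 1 probe set, 205114_s_at, which the annotation also pairs with the gene copies CCL3L1 and CCL3L3. The value is therefore that of CCL3 and its copies together. It was already high in the controls, at 10.66, 10.63 and 10.65, and reached 12.87, 12.88 and 12.91 in the knockdown. The groups did not overlap, and cultures of a group differed by less than 0.05. The means were 10.65 ± 0.01 and 12.89 ± 0.02 (SD, n = 3 each), a difference of 2.24 (SE 0.04) or 4.72-fold. The highest value of any probe set on these arrays was 13.32 to 13.38, so the knockdown values of CCL3 lay near the top of the range that was measured.

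CCL5 (RANTES), a ligand of CCR1 and CCR3 best known from T cells, was higher in the knockdown on 3 of 3 probe sets. The probe set with the highest mean, 1555759_a_at, read 6.39, 6.52 and 6.45 in the controls and 8.09, 8.25 and 8.21 in the knockdown, a difference of 1.72 (SE 0.09) or 3.31-fold. On 204655_at the controls read 6.17, 5.85 and 6.04 and the knockdown 7.96, 7.97 and 7.90, a difference of 1.92 (SE 0.10). On 1405_i_at the controls read 5.14, 4.69 and 5.33, which is below the filter, so that this probe set passed it only through the knockdown arrays, and the knockdown 7.46, 7.70 and 7.43. No probe set of CCL5 had overlapping groups, and the probe sets differed in the size of the change rather than in its direction. The dimmest, 1405_i_at, had the largest difference, 2.48 (SE 0.15), and was also the most sensitive to the offset, with 1.51 at an offset of 64 and 3.26 at an offset of 1.

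CXCL8 (interleukin-8), the main attractant of neutrophils, was near the floor in both groups. Its 211506_s_at read 5.09, 4.98 and 4.77 in the controls and 4.87, 4.63 and 4.74 in the knockdown, and 202859_x_at read 4.72, 4.78 and 4.48 against 4.60, 4.51 and 4.43. The groups overlapped on both probe sets, and the differences were -0.20 (SE 0.13) and -0.15 (SE 0.13). CXCL10, an interferon-induced ligand of CXCR3, read 5.17, 5.06 and 5.44 in the controls and 5.91, 5.57 and 5.40 in the knockdown. Its groups overlapped, because knockdown replicate 3 lay below control replicate 3. The difference was 0.40 (SE 0.15), and was 0.52 without knockdown replicate 3 and 0.51 without control replicate 3.

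**Figure D2:**
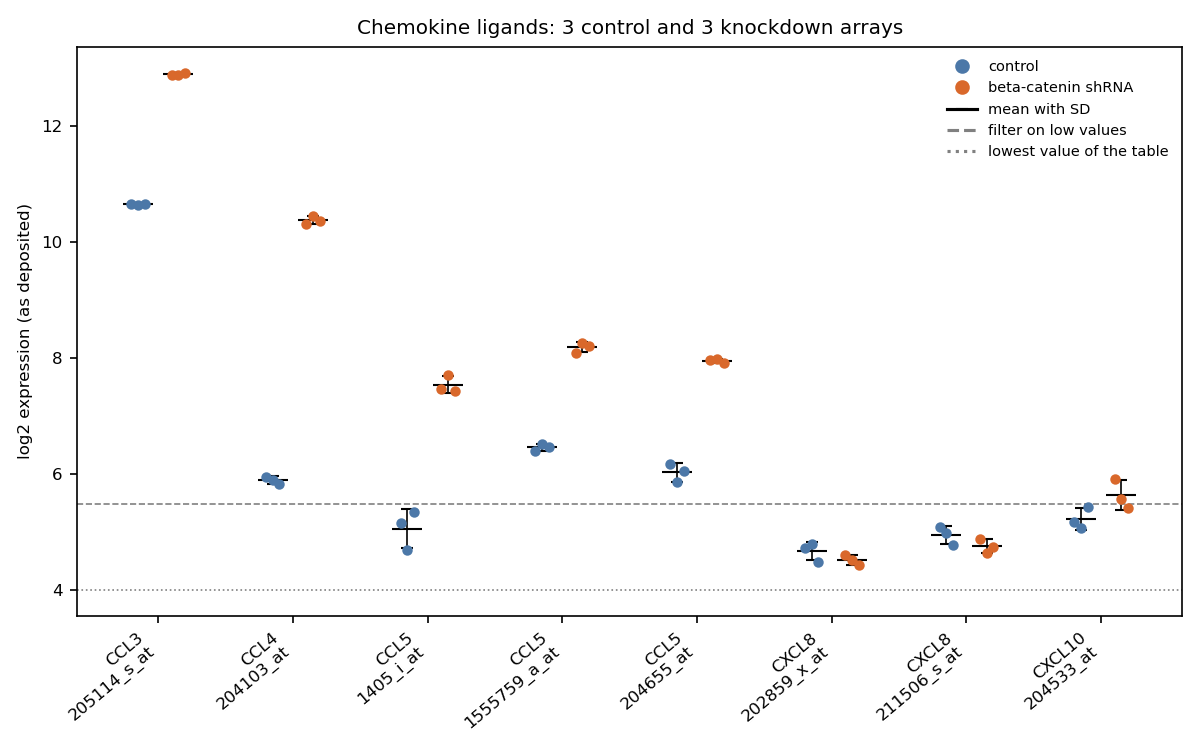
Deposited log2 expression of the 8 probe sets of the chemokine ligands, 1 point per array, with the mean and SD of each group, the filter (dashed) and the lowest value of the table (dotted). The groups are apart for CCL3, CCL4 and CCL5 and overlap for CXCL8 and CXCL10.

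CCL3, CXCL8 and CXCL10 set a ligand that differed widely beside a pair that did not, so their promoters are shown. They were picked after their values were seen. RefSeq's promoter table of GRCh38.p14 held 6 of the 10 genes and did not list CCL4, CCL5, CCR7 and CCR10. Each sequence runs from 250 bases before to 50 bases after the start site, for CCL3 the most upstream of 3 listed, and the capitals mark matches to 7 motifs. The motifs, searched on both strands, were GGNNNTTCC for NF-kB, TGANTCA for AP-1, TGACNTCA for CRE, GAAANNGAA for an interferon-response (ISRE) core, GCGNGGGCG for EGR, TATAAA for a TATA box and ATCAAAG for LEF/TCF, the partners of beta-catenin.
CCL3, chr17:36090094-36090393, minus strand: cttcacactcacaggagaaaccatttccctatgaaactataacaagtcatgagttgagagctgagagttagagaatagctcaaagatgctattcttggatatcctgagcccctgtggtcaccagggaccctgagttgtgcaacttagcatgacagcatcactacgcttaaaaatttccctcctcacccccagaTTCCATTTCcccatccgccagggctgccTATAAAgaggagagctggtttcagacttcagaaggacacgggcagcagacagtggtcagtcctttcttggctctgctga
CXCL8, chr4:73740319-73740618, plus strand: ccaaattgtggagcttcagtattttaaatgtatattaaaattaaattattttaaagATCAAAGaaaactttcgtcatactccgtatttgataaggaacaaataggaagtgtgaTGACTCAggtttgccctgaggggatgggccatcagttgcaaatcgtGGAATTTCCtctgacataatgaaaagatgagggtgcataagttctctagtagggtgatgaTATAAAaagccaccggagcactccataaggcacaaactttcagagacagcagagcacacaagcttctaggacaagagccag
CXCL10, chr4:76023448-76023747, minus strand: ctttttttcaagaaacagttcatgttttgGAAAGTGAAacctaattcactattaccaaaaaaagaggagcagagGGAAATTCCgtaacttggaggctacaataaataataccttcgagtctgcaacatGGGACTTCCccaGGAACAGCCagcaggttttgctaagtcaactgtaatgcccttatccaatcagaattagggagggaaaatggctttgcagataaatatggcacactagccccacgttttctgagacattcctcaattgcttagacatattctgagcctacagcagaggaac

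The window of CXCL8, which stayed dim, held GGAATTTCC at -91 to -83, TGACTCA at -137 to -131 and ATCAAAG at -194 to -188, beside TATAAA at -31 to -26. The window of CCL3, which was 4.72-fold higher in the knockdown, held TATAAA at -29 to -24 and the ISRE core on the opposite strand at -57 to -49, and no match to the NF-kB, AP-1, CRE, EGR or LEF/TCF letters. CXCL10 held 3 matches to the NF-kB letters, at -176 to -168, -122 to -114 and -110 to -102, and the ISRE core at -221 to -213. The other listed genes were searched too, CXCR4 in the most upstream of 3 windows. CXCR4, which was lower in the knockdown, held the NF-kB letters on the opposite strand at -230 to -222. It also held TATAAA at -30 to -25 and, on the opposite strand, at -32 to -27. CCR2 held TGACTCA at -212 to -206 and the ISRE core on the opposite strand at -56 to -48. CXCR3 held no match. Of 35116 promoters of the same length in the table, 20.1% held the NF-kB letters, 7.71% those of AP-1, 7.72% CRE, 8.11% the ISRE core, 9.43% EGR, 11.5% TATAAA and 2.62% LEF/TCF. A match shows only that the letters are present, and a missing match only that they are not in this window.

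Among the receptors CXCR4 was lower in the knockdown on 3 of 3 probe sets. On 217028_at, the brightest, the controls read 7.66, 7.65 and 7.72 and the knockdown 7.08, 6.96 and 6.82. The difference was -0.72 (SE 0.10), which left 60.6% of the control level. On 211919_s_at the values were 7.005, 6.99 and 7.09 against 6.58, 6.66 and 6.52, a difference of -0.44 (SE 0.10). On 209201_x_at they were 6.80, 6.47 and 6.83 against 6.17, 6.10 and 6.03, a difference of -0.60 (SE 0.12). The groups were apart on every CXCR4 probe set. Within the controls, replicate 2 was the lowest on each of them.

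CXCR3, the receptor of CXCL9, CXCL10 and CXCL11, was read by 2 probe sets that did not move alike. On 207681_at the controls read 6.00, 5.75 and 6.00 and the knockdown 6.29, 6.18 and 6.08, which do not overlap, with a difference of 0.27 (SE 0.11). On 217119_s_at they read 5.64, 5.68 and 5.22 against 5.51, 5.48 and 5.64, with a difference of 0.03 (SE 0.14) that turned to -0.03 under other scaling of the arrays.

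CCR10, a receptor for CCL27 and CCL28 that guides plasma cells to mucosa and skin, read 7.53, 6.997 and 7.13 in the controls and 7.20, 7.21 and 7.16 in the knockdown. All 3 knockdown cultures lay inside the range of the controls, with a difference of -0.03 (SE 0.12). Control replicate 1 stood apart from the other 2 controls, and without it the difference was 0.13. CCR7, which guides lymphocytes to lymph nodes, read 4.99, 5.10 and 5.26 against 5.28, 5.25 and 5.13 (difference 0.10, SE 0.12), and CCR2, the receptor of CCL2, had differences of -0.01 on each of its 2 probe sets (SE 0.13 and 0.16). CCR2 ranged from 4.48 to 5.14 in control arrays and from 4.66 to 5.10 in knockdown arrays over both probe sets. CCR7 and CCR2 lay below the filter in both groups, where an offset compresses any difference.

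**Figure D3:**
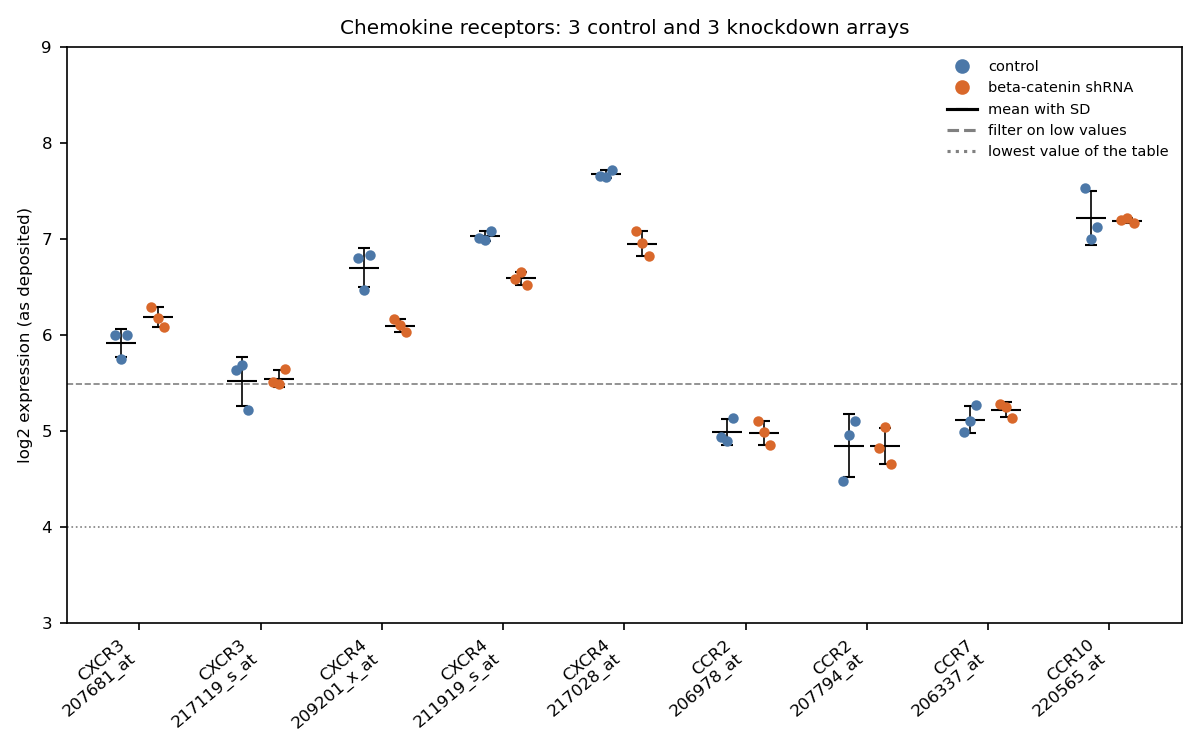
Deposited log2 expression of the 9 probe sets of the chemokine receptors, 1 point per array, with the mean and SD of each group, the filter (dashed) and the lowest value of the table (dotted). CXCR4 is lower in the knockdown on each of its 3 probe sets, CCR10 overlaps, and CCR2 and CCR7 lie below the filter.

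The rest of the family was read gene by gene, each by its brightest probe set with 1 symbol, and tested with limma over 12939 genes, of which 25.3% were called higher and 22.0% lower. Of 58 further chemokines and receptors, 50 had such a probe set, 31 of them lay below the filter and 19 were tested. Of these 3 rose, 1 fell and 15 were not called, with a median change of 0.04 beside 0.05 over all genes tested. CX3CR1, the receptor of fractalkine, rose by 1.16 (SE 0.12), from 6.38, 5.92 and 6.36 to 7.52, 7.44 and 7.18 (limma, adjusted p = 4.67e-09). As the mean of its probe sets CX3CR1 rose by 0.87. CXCL16, a transmembrane chemokine that binds CXCR6, rose by 0.86 (SE 0.13), from 5.35, 5.08 and 5.39 to 6.25, 6.25 and 5.89 (limma, adjusted p = 1.94e-06). CXCL16 had a control mean below the filter and passed it only through the knockdown arrays; in the fit without a filter its adjusted p was 3.05e-05 (limma). Neither gene had overlapping groups, which held for 7044 of the 12939 genes tested.

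CCR1, a receptor of CCL3 and CCL5, was clearly above the filter in both groups. It read 9.53, 9.25 and 9.44 in the controls and 9.69, 9.63 and 9.60 in the knockdown, a rise of 0.23 (SE 0.08; limma, adjusted p = 0.0162), and this call held in 12 of 16 other settings. It was lost without control replicate 2 (0.15; limma, adjusted p = 0.123), without knockdown replicate 1 (0.21; 0.0941), with arrays centred on their medians (0.18; 0.0779) and without the intensity trend (0.23; 0.0718). ACKR2, a decoy receptor that takes up inflammatory CC chemokines, fell by 0.56 (SE 0.13; limma, adjusted p = 4.36e-04), but by 0.12 and without a call when its probe sets were averaged. CXCL12, the ligand of CXCR4, read 5.55, 6.08 and 5.71 against 5.96, 5.63 and 5.67 and was not called (difference -0.03, SE 0.13; limma, adjusted p = 0.885). ACKR3, the other receptor of CXCL12, was not called either (difference 0.19, SE 0.12; limma, adjusted p = 0.217). CXCL9, which like CXCL10 is induced by interferon gamma, had a difference of 0.17 (SE 0.12; limma, adjusted p = 0.262). CCL2, CCL20, CXCL1, CXCL3 and CXCL11 lay below the filter.

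The genes next to the members on the chromosome were looked at too, as the 5 protein-coding genes on each side in the order of the RefSeq table, a choice made after the members' values were seen. Around CCL5, 4 neighbours were tested and 0 were called by limma at the adjusted threshold (GAS2L2 0.19, MMP28 -0.02, TAF15 -0.12 and LYZL6 0.18; smallest adjusted p = 0.143), and 0 had an unadjusted p under 0.05. Directly next to CCL4 lies CCL3, itself a member and 2.24 higher in the knockdown, which was not counted among the neighbours tested. Most other neighbours of CCL4 had no probe set of 1 symbol. CCL18, the one tested neighbour of CCL4, had a difference of 0.11 (limma, adjusted p = 0.436). CXCL8 had 2 tested neighbours, neither called (ANKRD17 -0.03, RASSF6 -0.21; limma, smallest adjusted p = 0.165). Of the 5 around CXCL10, SCARB2 rose by 1.20 (limma, adjusted p = 3.52e-14), NUP54 fell by 0.57 (limma, adjusted p = 3.14e-05) and NAAA, SDAD1 and CXCL9 were not called. Around CXCR4, which had 7 tested neighbours, 3 rose and 2 fell, beside 25.3% and 22.0% of all genes tested. MCM6, a subunit of the replicative helicase, and R3HDM1 fell by 0.68 and 0.74 (limma, adjusted p = 1.09e-08 and 2.82e-07). UBXN4, HNMT and NXPH2 rose by 0.29, 0.35 and 0.29 (limma, adjusted p = 0.0144, 0.00198 and 0.0397), and LCT and SPOPL were not called.

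Of 32 tested genes that carry or damp the signal of chemokine receptors, 16 rose, 6 fell and 10 were not called, with a median of 0.23. Over all genes tested 25.3% were called higher and 22.0% lower, with a median of 0.05. The list of 32 was chosen with earlier results of these arrays known, so its count is not independent evidence. It includes the regulators of G protein signalling, a family of proteins that switch off G proteins. RGS2 rose by 2.72 (SE 0.09), from 7.53, 7.22 and 7.36 to 10.06, 10.18 and 10.03 (limma, adjusted p = 3.47e-20). RGS1, which damps CXCR4 signalling in B cells, rose by 2.12 (SE 0.07), from 9.14, 9.03 and 9.14 to 11.20, 11.17 and 11.28 (limma, adjusted p = 4.22e-21). RGS16 rose by 1.22 (SE 0.10; limma, adjusted p = 6.29e-11), or by 0.67 as the mean of its probe sets. No groups overlapped for these 3 genes. Of the other regulators, RGS14, RGS3 and RGS10 rose by 0.62, 0.34 and 0.29, the last 2 with calls in 14 and 9 of 16 other settings, and RGS19 was not called (-0.10). RGS10 lost its call without control replicates 2 or 3 (0.21 and 0.26) and without knockdown replicates 1 or 2 (0.31 and 0.22), among other settings. RGS3 lost it without knockdown replicate 1 (0.29) and as the mean of its probe sets (0.09; limma, adjusted p = 0.434).

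CD74 and MIF form a further receptor and ligand pair, in which CD74 binds MIF and can pair with CXCR4. CD74 rose by 1.17 (SE 0.06; limma, adjusted p = 7.57e-16), or by 0.76 as the mean of its probe sets. MIF fell by 0.43 (SE 0.05; limma, adjusted p = 3.36e-08). PTK2B (PYK2), a kinase activated by chemokine receptors, rose by 0.95 (SE 0.10; limma, adjusted p = 2.33e-09). Of the inhibitory G protein subunits, GNAI1 rose by 0.87, and GNAI2 and GNAI3 fell by 0.46 and 0.37. GNAI3 lost its call as the mean of its probe sets (-0.17; limma, adjusted p = 0.123). Without knockdown replicate 1 the count of genes called higher was 9 in place of 16. Among the weaker calls, GRK3 and RAC1 changed sign when probe sets were averaged (-0.03 and 0.06). GRK3 also lost its call without control replicate 1 (0.31) and without knockdown replicates 1 or 2 (0.29 and 0.34). RAC1 lost it without control replicates 1 or 3 (-0.20 and -0.26), without each knockdown replicate (-0.28, -0.27 and -0.21 in turn) and with the replicate number as a block (-0.25; limma, adjusted p = 0.0879).

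Of 25 tested factors that control chemokine transcripts, 18 rose, 3 fell and 4 were not called, with a median of 0.47. Over all genes tested 25.3% were called higher and 22.0% lower, with a median of 0.05. The list of factors was also drawn up with earlier results of these arrays known, so its count is not independent evidence. FOS lay at the floor of 4 in all 3 controls and read 9.26, 9.32 and 9.24 in the knockdown (limma, adjusted p = 1.71e-25). ATF3 rose by 3.93 (SE 0.08; limma, adjusted p = 5.16e-25), or by 2.75 as the mean of its probe sets. JUN rose by 3.70 (SE 0.10; limma, adjusted p = 4.69e-22) and JUND by 2.20 (SE 0.07; limma, adjusted p = 2.07e-21), or by 2.97 and 1.31 as the means of their probe sets. FOSB rose by 3.78 and CEBPB, which binds many chemokine promoters, by 2.23. FOS and FOSB had control means below the filter and passed it only through the knockdown arrays; without a filter their adjusted p-values were 1.78e-17 and 7.32e-13 (limma).

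Of the other AP-1 genes, JUNB rose by 0.47, FOSL2 was not called (0.11) and FOSL1 lay below the filter. Among the NF-kB subunits RELB rose by 0.65, NFKB2 by 0.40, REL by 0.36 and RELA by 0.32, while NFKB1 was not called (-0.10). NFKB2, REL and ZFP36L2 lost their calls as means of their probe sets (0.13, 0.17 and 0.17; limma, adjusted p = 0.239, 0.067 and 0.0942). Proteins that bind AU-rich elements and set the decay of chemokine transcripts went both ways. ZFP36, ZFP36L1 and ZFP36L2, which promote decay, rose by 1.01, 2.09 and 0.25, ZFP36L1 by 0.90 as the mean of its probe sets. ELAVL1 (HuR), which stabilises such transcripts, fell by 1.06, HNRNPD (AUF1) fell by 1.36 and KHSRP, a decay factor, fell by 0.63. As the mean of their probe sets ELAVL1 and HNRNPD changed by -0.42 and -0.55.

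**Figure D4:**
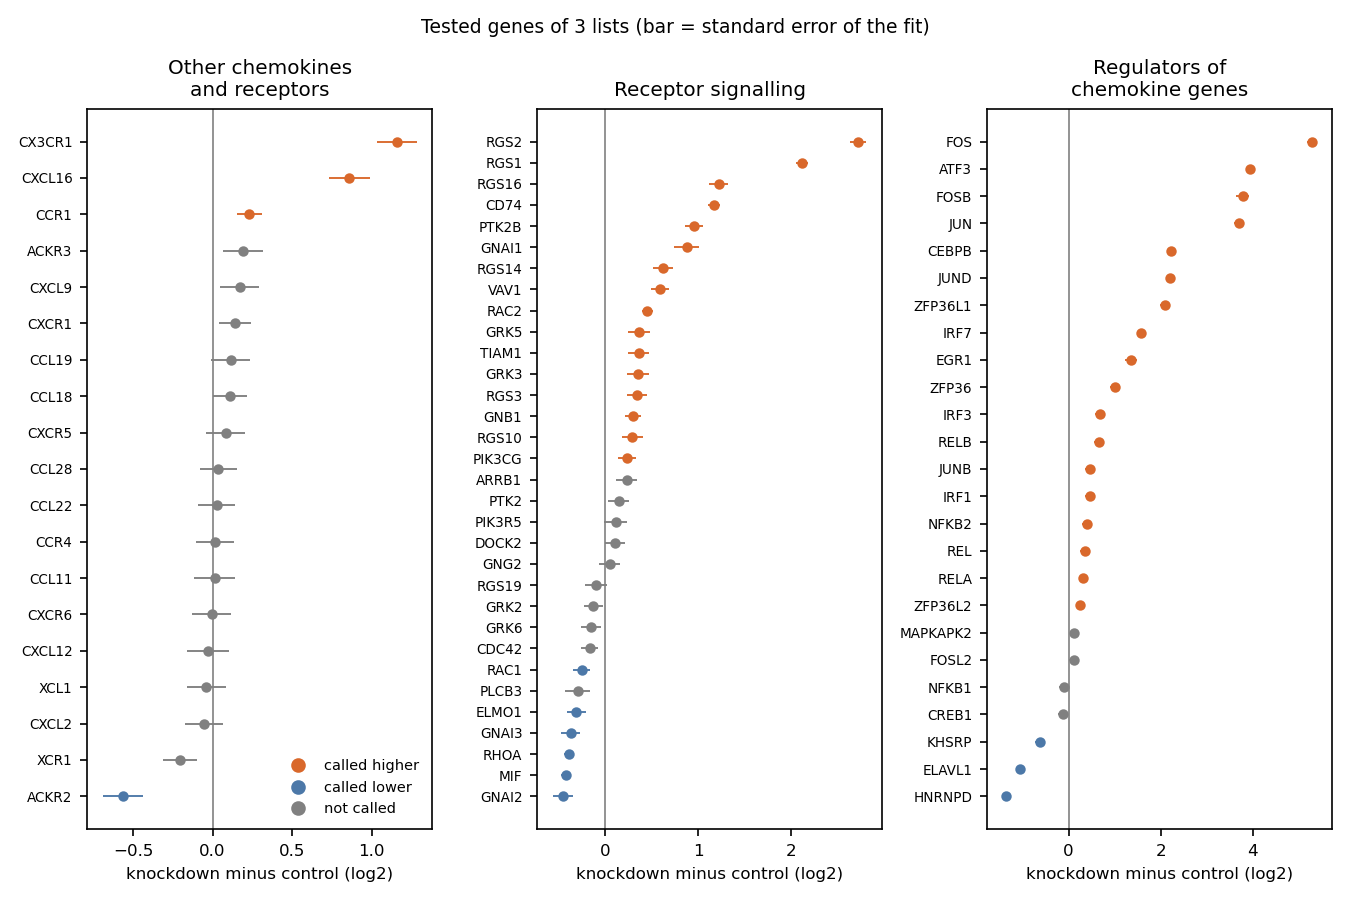
Knockdown minus control on the log2 scale for the tested genes of 3 lists (19 other chemokines and receptors, 32 genes of receptor signalling, 25 regulators of chemokine genes), with the standard error of the limma fit as a bar and colour for the call. CX3CR1 and CXCL16 stand out in the first list, RGS2 and RGS1 in the second and FOS and ATF3 in the third.

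The genes whose values over the 6 arrays lay closest to those of a member were found by Euclidean distance after each gene's control mean was taken away, as a description. Closest to CCL4 were DUSP1, a MAP kinase phosphatase, at a distance of 0.24 (difference 4.47), then ATF3 at 0.96 and KLF4, a transcription factor, at 0.97. KLF4 had a control mean of 4.65, below the filter, and passed it only through the knockdown arrays. Closest to CXCR4 were CKAP5, a microtubule polymerase, at 0.07 (difference -0.71), EIF3C, a translation initiation factor, at 0.10 (-0.76) and MFHAS1 at 0.11 (-0.68). For CCR10 they were WDR53, EXOSC1 and DNPH1 at 0.11, 0.12 and 0.13. These 3 genes had, like CCR10, their highest value in control replicate 1 and no wide difference between groups (-0.02, 0.00 and -0.04). That likeness follows from picking them by their closeness to CCR10.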

How the data were processed

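RNA of 3 control and 3 knockdown cultures was read on Affymetrix arrays of 1 colour. The authors deposited a table of log2 expression with a row per probe set. MAS5 and PLIER are named in the submitters' processing notes. Their roles and versions, and the normalization between arrays, are not given in the sources used here. The lowest values lie at 4, as log2(signal + 16) would give; this form was read from the values. A fold is on that scale and understates changes of dim probe sets. Values were used as deposited.

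Of 54675 probe sets, 62 array controls were left out. Symbols came from the platform annotation, updated by gene ID through RefSeq (GRCh38.p14). The groups were compared by limma 3.58.1 (lmFit, eBayes with an intensity trend, two-sided) in R 4.3.3, with Benjamini-Hochberg adjustment over all features fitted and a threshold of 0.05. The fit ran on all probe sets, without a filter, and on genes, each by its brightest probe set of 1 symbol with a mean of at least 5.49. It was tested on simulated data. Marker sums are linear signals after the 16 was taken away. Precision is limited by the number of arrays.

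Members and lists were chosen with earlier results of these data known. The text names each member, CTNNB1, every called gene of the first list, up to 6 called genes of the others by adjusted p, and the 3 nearest patterns to CCL4, CXCR4 and CCR10. Other genes were named after their values were seen: the uncalled or dim chemokines and receptors, the neighbours, GNAI1, GNAI2, GNAI3, GRK3, RAC1, the other regulators of G protein signalling and AP-1 genes, the NF-kB subunits and the AU-rich element binding proteins. FOSB and CEBPB fall under the rule. The called plasma cell markers were also named after their values were seen. Alternatives changed the block, scaling, filter, probe set rule, variance model and offset, or left out 1 array.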

Additional observations from a re-analysis of the deposited data

How the results depend on the processing

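Differences of members are a description here too, and their direction under other settings is no sign of stability, since the members were chosen on it. The offset of 1 and all alternatives of the probe set fit were chosen after seeing the data. Of 115 values of members under an alternative, 11 moved by more than 1 SD of replicates. On the brightest probe set of each gene, the sign changed for CCR10 without control replicate 1 (0.13), from -0.03. It changed for CCR2 without control replicate 3 (0.07) or knockdown replicate 3 (0.06), from -0.01. On dimmer probe sets the sign also changed for CCR2 (207794_at, from -0.19 to 0.12 over settings) and CXCR3 (217119_s_at, from -0.12 to 0.12). Among further chemokines and receptors, the count called lower was 2 in place of 1 under cyclic loess, quantile normalization, no filter and centring on array medians, 0 with a filter at the 75th percentile, and 1 to 2 when each array was left out. Receptor signalling genes called higher numbered 9 to 16 when each array was left out, 9 without knockdown replicate 1. Replicate numbers did not pair the samples: deviations of same-numbered arrays correlated at -0.04, -0.12 and -0.22, and no array correlated best with its own number. With the replicate block, 2897 genes were called higher and 2597 lower, against 3273 and 2841; the list counts stayed within 1.5 times. Dim probe sets, those of CXCL8, CXCL10, CCR2 and CCR7, limit what a difference near the floor can show.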
